A study of Mus musculus with 33 samples.

Results

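A set of 10 genes of the liver vasculature were followed through every library of a mouse study of MYC and β-catenin in liver tumours. The set was chosen by symbol, and all 10 were found among the 21671 genes of the deposited table. Lyve1, Stab1, Stab2 and Clec4g mark the sinusoidal endothelium, Pecam1, Kdr, Plvap and Vwf are broader endothelial or vascular genes, and Wnt2 and Rspo3 encode secreted ligands of the Wnt pathway.

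The study sequenced total RNA of 33 livers and liver tumours of C57BL/6 mice. The short-term arm held 20 livers, 5 per genotype, taken 4 days after intravenous AAV8-TBG-CRE, a virus that carries Cre under a hepatocyte promoter, in mice of 6 to 8 weeks. The genotypes were WT, b-cat Ex3 (called Ex3 here, an allele from which Cre removes exon 3 so that β-catenin is stabilised), R26-lslMYC (called MYC, a MYC transgene silent until Cre acts) and R26-lslMYC/b-cat Ex3 (called MYC+Ex3). The WT livers of this arm had received the same virus. The tumour arm held 3 noduli of Alb-CreERT2/R26-lslMYC mice, 3 noduli of Alb-CreERT2/R26-lslMYC/b-catEx3 mice and 7 WT livers taken 4 days after intraperitoneal 4-OHT, the drug that activates CreERT2. Cre was driven by the albumin or the TBG promoter, both of hepatocytes, so the endothelial cells of every group were not the cells meant to carry the altered alleles. The labels give no treatment, age or time for the noduli, and do not say whether noduli of a group came from different mice, so the p-values below measure the spread between libraries. The WT livers of the tumour arm are not labelled as carrying Alb-CreERT2, so genotype, tumour and Cre carriage cannot be told apart in that arm.

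The sinusoidal endothelium is the fenestrated lining of the liver's capillaries, which takes up waste macromolecules from portal blood through scavenger and lectin receptors. Endothelial cells near the central vein also secrete Wnt ligands and R-spondin, which keep β-catenin active in the hepatocytes beside them. R-spondins act through LGR receptors and the ubiquitin ligases ZNRF3 and RNF43, which otherwise remove Wnt receptors from the cell surface. When sinusoids turn into ordinary capillaries, a change described in fibrosis and liver cancer, the cells lose these receptors and gain markers of continuous endothelium.

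The reads counted in genes ran from 3.75 to 7.31 M in short-term livers and from 6.65 to 9.82 M in the tumour arm. Values are RPKM, reads per kilobase and per M reads, and the RPKM scale of the tumour arm was lower, so levels are compared within an arm only. The highest RPKM of any gene in a library was 220 to 396 in short-term livers and 42.9 to 67.5 in the tumour arm. Axin2, a β-catenin target, ran from 7.49 to 24.9 RPKM in the short-term livers with Ex3 and from 2.73 to 4.30 in WT, and from 7.63 to 11.3 in MYC+Ex3 tumours against 0.793 to 1.995 in 4-OHT livers. Myc itself overlapped between groups in the short-term arm, with 0.748 to 4.11 RPKM in WT and 3.12 to 4.81 in MYC livers, and these values do not separate the transgene from the mouse gene. Among the short-term livers, 10 libraries carried epidermal keratins (Krt5, Krt14 and Krt17 summed to 3.95 to 23.8 RPKM) and 10 did not (0 to 0.398). Keratin-bearing libraries made up 3 of 5 in WT, Ex3 and MYC+Ex3 but 1 of 5 in MYC. Short-term libraries called male were 2 of 5 in WT, 3 of 5 in Ex3 and MYC, and 4 of 5 in MYC+Ex3. For the tumour arm the male share was 4 of 7 after 4-OHT, 3 of 3 with MYC alone and 2 of 3 with both alleles. Replicate 5 of MYC had both Xist (86.1 RPKM) and the Y-linked Ddx3y (4.74 RPKM), unlike the other short-term livers, and replicate 4 of MYC was the lowest of its group for 8 of the 10 genes.

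The endothelial identity of the RNA was first read from WT livers, where levels per length can be compared between genes. Clec4g, a C-type lectin of the sinusoidal lining, had the highest level of the 10 genes in WT short-term livers, 94.5 ± 16.1 RPKM (SD, n = 5). Stab1 and Stab2, the scavenger receptors stabilin-1 and stabilin-2, stood at 27.5 ± 8.57 and 26.4 ± 5.28, beside Plvap at 27.5 ± 7.49, Kdr at 24.5 ± 4.06 and Pecam1 at 21.8 ± 5.92. These 5 levels lay within the spread of each other. Lyve1, a hyaluronan receptor, stood at 15.8 ± 4.27 RPKM, below most of them. The ligands Wnt2 and Rspo3 followed at 8.74 ± 3.72 and 8.71 ± 2.19 RPKM, and did not differ beyond their spread. Vwf, the clotting protein of larger vessels, was the lowest at 1.47 ± 0.421 RPKM. In the 4-OHT WT livers Clec4g again had the highest mean (18.2 ± 4.05, n = 7) and Vwf the lowest (0.644 ± 0.0840), with Wnt2 at 1.13 ± 0.716 and Rspo3 at 1.68 ± 0.540.

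Promoter sequences were held for 5 of the 10 genes in RefSeq's table of build GRCm38.p6, which is a later build than the mm9 of the deposited values. The 250 bases before the start of the lectin gene with the largest log2(RPKM + 1) change in tumours (Clec4g, chr8:3720652-3720901, minus strand) and of the Wnt ligand (Wnt2, chr6:18030446-18030695, minus strand) are shown, since these genes mark the sinusoidal and the niche side of the set. Capitals mark the core of GATA factor sites (GATAA or GATAG, each preceded by A or T) and of ETS factor sites (GGAAG, preceded by A or C), on either strand.
Clec4g: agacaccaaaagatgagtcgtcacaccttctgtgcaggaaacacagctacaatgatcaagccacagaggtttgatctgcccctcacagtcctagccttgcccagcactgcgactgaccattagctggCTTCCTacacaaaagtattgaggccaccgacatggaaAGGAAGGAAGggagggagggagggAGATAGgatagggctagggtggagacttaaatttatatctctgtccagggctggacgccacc
Wnt2: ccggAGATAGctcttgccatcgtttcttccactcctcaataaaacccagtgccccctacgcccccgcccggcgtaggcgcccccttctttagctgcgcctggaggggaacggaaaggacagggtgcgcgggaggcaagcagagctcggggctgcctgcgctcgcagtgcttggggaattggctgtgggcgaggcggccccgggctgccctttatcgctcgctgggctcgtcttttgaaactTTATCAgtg
The Clec4g promoter held 1 of the GATA strings and 3 of the ETS strings, 2 of which overlap each other. In the Wnt2 promoter there were 2 GATA strings and 0 ETS strings. Stab1 held 2 ETS strings, Stab2 held 1, and neither had a GATA string, while Kdr had 0 of both. Of 27025 mouse promoters cut to the same length, 27.09% held one of the GATA strings and 38.95% one of the ETS strings. Such matches describe letters, not binding.

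At 4 days after Cre, Ex3 alone gave no call among the 10 genes. By limma on log2(RPKM + 1), with adjusted p-values over all 13688 genes tested in the arm, 0 of the 10 genes were called at 0.05, 0 had an unadjusted p under 0.05, and voom on the recovered reads called 0. The background was low as well, 0.132% of all genes tested (0.11% by voom). Wnt2 had the widest difference, 6.06, 8.21, 5.01, 8.02 and 4.25 RPKM in Ex3 against 10.4, 3.61, 13.7, 8.46 and 7.56 in WT. Its log2 change was -0.35, with a 95% interval from -1.004 to 0.30, which includes the change of Wnt2 in MYC+Ex3 livers given below. For Rspo3 the interval ran from -0.54 to 0.31.

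Kdr, the main VEGF receptor of endothelial cells, was the 1 gene of the set called in MYC livers. Its RPKM was 12.8, 17.5, 19.2, 5.35 and 18.4 in MYC and 24.8, 19.6, 30.5, 22.3 and 25.5 in WT. Every MYC liver was below every WT liver, although the highest MYC and the lowest WT value lay close to each other. Kdr fell 1.67-fold in mean RPKM (log2 change -0.80 ± 0.246 SE, limma adjusted p = 0.0235). In this comparison 22.3% of all genes were called, 5.36% as lower, so 1 in 10 genes is near that background. The call was lost without replicate 3 of WT (adjusted p = 0.0558) or replicate 1 of MYC (0.0512), in a fit of those groups alone (0.0763), in keratin-free libraries (0.0537) and without replicates 4 and 5 of MYC together (0.0574), the last chosen after the data were seen. Without replicate 4 of MYC, the lowest, Kdr had a log2 change of -0.51 (adjusted p = 0.0490).

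Of the sinusoidal receptors in MYC livers, Stab1, Stab2 and Clec4g had lower means than in WT without passing the test. Stab2 had 16.9, 21.5, 22.4, 9.10 and 24.7 RPKM in MYC and 26.1, 22.9, 35.1, 21.5 and 26.1 in WT, and these groups overlapped. Its log2 change was -0.51 (limma adjusted p = 0.0585), and it passed the threshold after rescaling of libraries by their median ratio (adjusted p = 0.0165). Clec4g had a log2 change of -0.54 (adjusted p = 0.0918) and Stab1 of -0.30 (0.432). Without replicate 4 of MYC the change was 0.02 for Stab1 (adjusted p = 0.966) and -0.28 for Stab2 (0.152). In the authors' deposited table Kdr (log2 fold change -0.77, adjusted p-value 0.0126) and Clec4g (-0.57, 0.0321) were under 0.05 in MYC livers. The share of all genes with such a value there was not counted, so these 2 are not read against a background. Lyve1 (0.15) and Plvap (-0.01), a protein of fenestral diaphragms, stayed close to 0, with 95% intervals from -0.43 to 0.74 and from -0.43 to 0.42. Wnt2 had 3.33, 4.52, 9.15, 2.29 and 7.84 RPKM, a log2 change of -0.63 (adjusted p = 0.159), and Rspo3 a change of -0.31 (0.291).

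In MYC+Ex3 livers both niche ligands fell. Wnt2 had 2.59, 2.71, 4.79, 3.62 and 5.60 RPKM against 10.4, 3.61, 13.7, 8.46 and 7.56 in WT, with 34 to 176 reads behind the WT values and 36 to 57 behind the others. Only replicate 2 of WT reached into the range of MYC+Ex3. The mean RPKM of Wnt2 was 2.26-fold lower (log2 change -0.95 ± 0.313, limma adjusted p = 0.0330). Rspo3 had 5.21, 3.82, 7.01, 3.85 and 7.54 RPKM against 7.83, 5.25, 9.98, 10.5 and 10.0, again with replicate 2 of WT inside the other range. Rspo3 was 1.59-fold lower (log2 change -0.59 ± 0.204, adjusted p = 0.0413). These 2 of 10 genes stand against 24.1% of all genes called, and 6.18% called lower.

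Both calls were lost without some single libraries and within the keratin-bearing livers alone. Of 10 alternatives other than leaving out 1 library, Wnt2 stayed called in 7, a keratin term among them, and Rspo3 in 6. Leaving out replicate 1, 3, 4 or 5 of WT, or replicate 1, 2 or 4 of MYC+Ex3, took Wnt2 to an adjusted p between 0.0526 and 0.0886 and Rspo3 between 0.0517 and 0.120. Sex was uneven between these groups, with 2 of 5 males in WT and 4 of 5 in MYC+Ex3. With a sex covariate the adjusted p was 0.0788 for Wnt2 and 0.0898 for Rspo3, and with no filter on low values 0.0548 and 0.0641. Within the 4 keratin-free livers of these groups, WT replicates 1 and 3 had 10.4 and 13.7 RPKM of Wnt2 and MYC+Ex3 replicates 1 and 2 had 2.59 and 2.71, a log2 change of -1.82 (adjusted p = 0.00785). Within the keratin-bearing livers, 3 against 3, the log2 change of Wnt2 was -0.36 (adjusted p = 0.456), and the part of the split in the result was not tested further. Rspo3 gave -0.85 (0.0188) and -0.42 (0.356) in the same fits. In keratin-free livers 7 of the 10 genes were called, Clec4g (-1.14), Kdr (-1.13), Pecam1 (-0.91), Stab2 (-0.72) and Stab1 (-0.55) beside the ligands, where 22.5% of all genes were called and 8.44% were called lower. In keratin-bearing livers limma called 0 of the 10 genes, 1 had an unadjusted p under 0.05, and 18.6% of all genes were called, 3.59% as lower. Whether the subsets differ from each other was not tested.

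Among the receptors, every MYC+Ex3 liver was below every WT liver for Stab2, at 16.8, 19.4, 19.6, 18.2 and 21.1 RPKM, yet the test across genes gave an adjusted p of 0.102 (log2 change -0.43). Kdr had a log2 change of -0.62 (0.0708), Clec4g of -0.49 (0.116) and Pecam1, an adhesion protein of endothelial junctions, of -0.44 (0.102). In the authors' deposited table, which holds DESeq2 results for the same libraries, 5 of the 10 genes had an adjusted p-value under 0.05 in this comparison, Stab2, Pecam1 and Kdr as well as Wnt2 (log2 fold change -1.12) and Rspo3 (-0.69). The authors' deposited table gives such a value to 27.8% of all genes with an adjusted p-value there, and to 11.5% as lower. Without replicate 4 of MYC, which is in neither group but shares the estimate of spread, Stab2 and Kdr were called too (adjusted p = 0.0126 and 0.00690).

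Adding Ex3 to MYC changed none of the 10 genes by limma (0 with an unadjusted p under 0.05, 0 by voom), with 0.19% of all genes called (0.146% by voom). The interval for Wnt2 ran from -0.97 to 0.34 and that for Rspo3 from -0.70 to 0.15. Adding MYC to Ex3 gave 0 calls by limma and 0 by voom, where 21.1% and 21.9% of all genes were called, although 2 genes had an unadjusted p under 0.05. These were Stab2, with every MYC+Ex3 liver below every Ex3 liver (log2 change -0.45, adjusted p = 0.0970), and Rspo3 (-0.47, adjusted p = 0.110). The interaction of the alleles, the test of whether their effects add up on the log scale, called 0 of the 10 genes by limma and by voom, with 0 at an unadjusted p under 0.05 and 0% of all genes called by either. The comparisons with WT share the WT livers, so their values are not independent of each other.

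**Figure D1:**
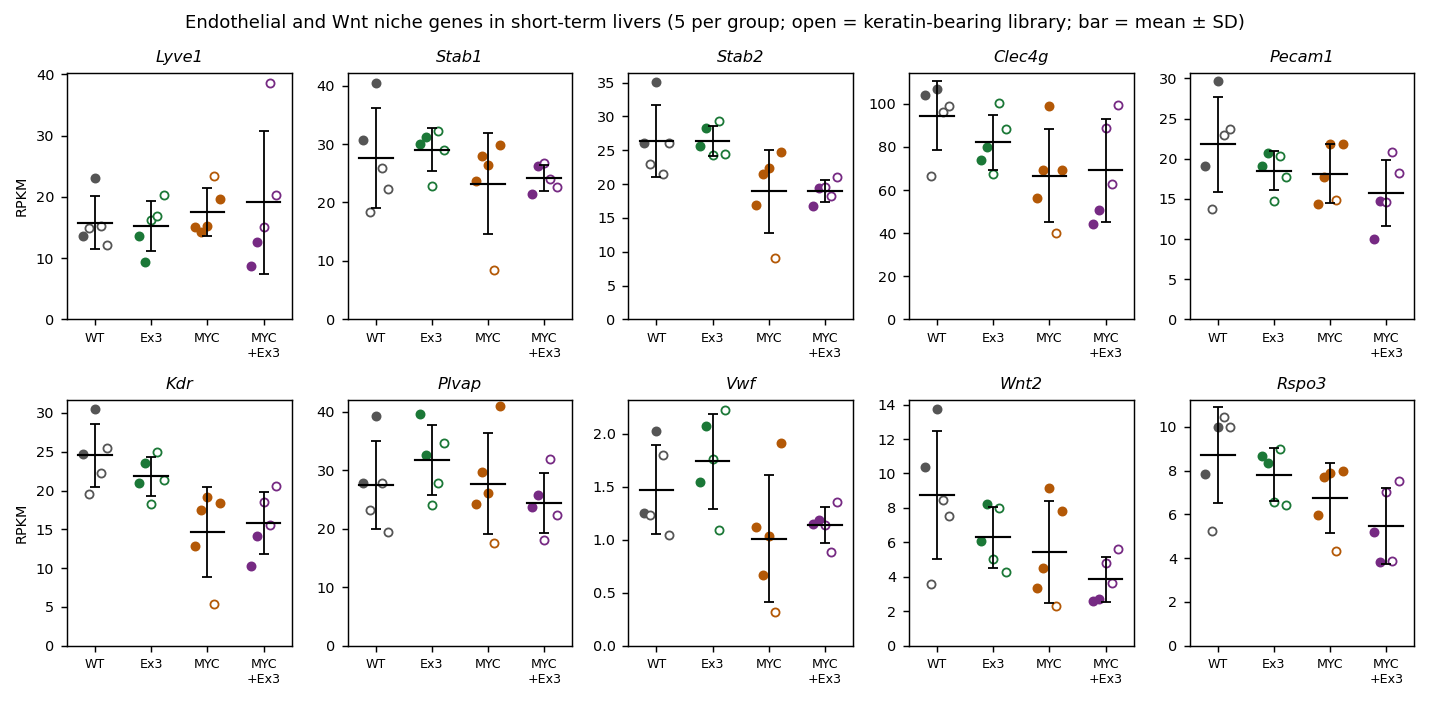
RPKM of the 10 genes in the 20 short-term livers, by genotype on the x axis, with 1 point per library, open where it carried epidermal keratins, and bars for the mean and SD of 5. Kdr is lower in all 5 MYC livers than in WT, and the MYC+Ex3 values of Wnt2 lie between 2.59 and 5.60 RPKM.

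In tumours most of the genes fell. Of the 9 genes tested in that arm, 8 fell in MYC tumours and 7 in MYC+Ex3 tumours against the 4-OHT WT livers, where 13.7% and 18.4% of all 11854 genes tested were called lower (49.8% and 60.6% called in either direction). Vwf stayed under 1 RPKM in too many libraries to be tested, and Wnt2 passed that filter, an RPKM of at least 1 in at least 3 libraries, only through 3 of the 4-OHT livers, the group where it is high. Rspo3 passed it through all 7 livers and 1 MYC tumour, and 0 of the MYC+Ex3 tumours reached it. These counts therefore describe the genes that passed and support nothing on their own. With no filter, Vwf had a log2 change of -0.17 in MYC tumours (adjusted p = 0.396) and -0.04 in MYC+Ex3 tumours (0.844). The median log2 change of all genes was 0.19 and 0.23 in these comparisons. Rescaling the libraries by their median ratio took it to 0.01 and 0.05 and the share called lower to 23.3% and 27.1%, with 27.1% and 33.9% called higher against 36.2% and 42.3% before. In tissue RNA, fewer endothelial cells and less RNA per endothelial cell cannot be told apart, and this holds for each fall below.

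Clec4g fell most on the log2(RPKM + 1) scale among the members, though Wnt2 fell further in fold of mean RPKM. It had 11.2 to 22.8 RPKM in the 4-OHT livers (median 17.9), 4.51, 10.3 and 0.504 in MYC tumours and 3.61, 4.15 and 2.94 in MYC+Ex3 tumours. All 6 tumours lay below all 7 livers, and the MYC tumours spread far more than the MYC+Ex3 tumours. Mean RPKM was 3.57-fold lower in MYC tumours (log2 change -2.05 ± 0.419, limma adjusted p = 0.00122) and 5.11-fold lower in MYC+Ex3 tumours (-2.05 ± 0.419, 0.000755). The lowest MYC tumour, replicate 3, had 23 reads, and the MYC+Ex3 tumours had 112 to 162. The highest RPKM of any gene in a library of this arm was 42.9 to 67.5, and whether high levels such as that of Clec4g are compressed was not tested.

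The stabilins followed. Stab1 had 7.27 to 12.1 RPKM in the 4-OHT livers (median 10.8), 4.43, 5.69 and 3.74 in MYC tumours and 3.29, 3.28 and 3.55 in MYC+Ex3 tumours, again without overlap with the livers. Its fall was 2.27-fold in MYC tumours (log2 change -1.03, adjusted p = 5.54e-05) and 3.11-fold in MYC+Ex3 tumours (-1.38, 2.22e-06). Stab2 had 6.63 to 9.61 RPKM in the livers (median 8.74), 4.38, 4.86 and 0.884 in MYC tumours and 2.87, 2.43 and 2.60 in MYC+Ex3 tumours. Stab2 fell 2.57-fold (log2 change -1.30, adjusted p = 0.000980) and 3.29-fold (-1.41, 0.000322), and replicate 3 of the MYC tumours stood apart below the other tumours, as it did for Clec4g. Without that replicate both stayed called in MYC tumours, with log2 changes of -1.25 for Clec4g (adjusted p = 0.00255) and -0.78 for Stab2 (0.000482).

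Lyve1 had another pattern. In the 4-OHT livers it had 4.94 to 9.21 RPKM (median 7.18), in MYC tumours 6.25, 4.70 and 1.54, and in MYC+Ex3 tumours 9.17, 7.06 and 11.7. Replicates 1 and 2 of the MYC tumours were thus near or inside the range of the livers, and the MYC+Ex3 tumours ran from just under its median to above its top. Lyve1 fell in MYC tumours (log2 change -0.73 ± 0.274, adjusted p = 0.0396), but this call rested on replicate 3, without which the change was -0.28 (adjusted p = 0.347). It was also lost without replicate 2, 3, 5 or 6 of the 4-OHT livers (0.0584 to 0.0667), with no filter (0.0702), with a sex covariate (0.0975), in a fit of those groups alone (0.0505), and with either titled set of 4-OHT livers alone (0.111 and 0.110). In MYC+Ex3 tumours the log2 change of Lyve1 was 0.38, not called (adjusted p = 0.245), with a 95% interval from -0.21 to 0.96 that does not reach the falls of Stab1, Stab2 or Clec4g.

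Kdr, the VEGF receptor, fell in both kinds of tumour. It had 5.11 to 8.26 RPKM in the 4-OHT livers (median 6.58), 3.12, 3.604 and 1.95 in MYC tumours and 1.73, 1.85 and 1.35 in MYC+Ex3 tumours. No tumour reached the range of the livers. The mean was 2.32-fold lower in MYC tumours (log2 change -0.999 ± 0.149, adjusted p = 0.000114) and 4.08-fold lower in MYC+Ex3 tumours (-1.54 ± 0.149, 1.49e-06). Plvap had 8.00 to 12.1 RPKM in the livers (median 8.84), 5.65, 6.26 and 5.28 in MYC tumours and 3.70, 3.85 and 4.11 in MYC+Ex3 tumours. It fell 1.63-fold (log2 change -0.61, adjusted p = 0.000824) and 2.40-fold (-1.07, 4.69e-06), with each kind of tumour below the livers.

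Pecam1 was not called by limma on log2(RPKM + 1) in either kind of tumour. It had 4.65 to 7.72 RPKM in the 4-OHT livers (median 6.74), 8.32, 6.22 and 9.20 in MYC tumours and 5.37, 4.60 and 5.29 in MYC+Ex3 tumours. Replicates 1 and 3 of the MYC tumours lay above the liver range and replicate 2 inside it, and the MYC+Ex3 tumours lay in its lower part or just below. Its log2 change was 0.22 in MYC tumours (adjusted p = 0.195, 95% interval from -0.07 to 0.52) and -0.31 in MYC+Ex3 tumours (0.0656). The latter was called lower after rescaling (-0.50, adjusted p = 0.00226) and by voom on the reads (-0.54, 0.00543), and the authors' deposited table gives a log2 fold change of -0.59 with an adjusted p-value of 3.29e-05. Without replicate 2 of the MYC tumours and replicate 1 of the 4-OHT livers, a setting added after the data were seen, Pecam1 was called higher in MYC tumours (0.40, 0.0328). Vwf had 0.517 to 0.746 RPKM in the livers (median 0.652), 0.179, 1.04 and 0.294 in MYC tumours and 0.402, 0.523 and 0.897 in MYC+Ex3 tumours, and replicate 2 of the MYC tumours, with 557 reads, was the highest of the arm. Pecam1 and Vwf are also expressed by platelets and their precursors. Of the 6 platelet markers, 4 were tested and all 4 were called higher in MYC+Ex3 tumours (3 after rescaling), and 1 of 4 (Pf4) in MYC tumours. The background was 42.3% of all genes called higher in MYC+Ex3 tumours (33.9% after rescaling) and 36.2% in MYC tumours. The rise was not particular to platelets. Erythroid markers were called higher in 3 of 4 tested in MYC+Ex3 tumours (2 after rescaling) and in 0 of 4 in MYC tumours. The summed RPKM of the platelet markers was 3.05 to 6.67 in the livers, 4.08 to 35.3 in MYC tumours and 22.5 to 23.9 in MYC+Ex3 tumours. The part of platelets in the levels of Pecam1 and Vwf was not tested.

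**Figure D2:**
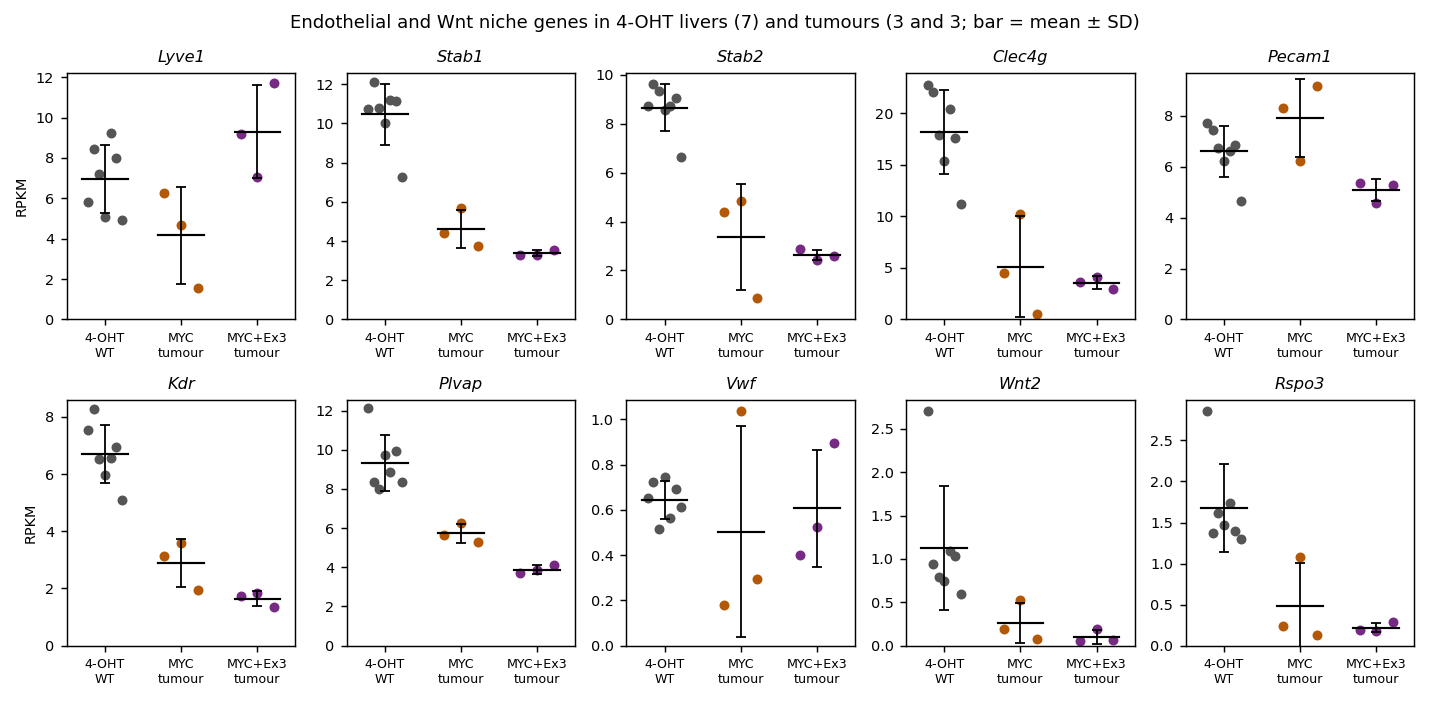
RPKM of the 10 genes in 7 4-OHT WT livers, 3 MYC tumours and 3 MYC+Ex3 tumours, 1 point per library, with bars for mean and SD. Stab1, Stab2, Clec4g, Kdr, Plvap, Wnt2 and Rspo3 have no tumour inside the range of the livers, while Lyve1, Pecam1 and Vwf do. The share of all genes without such overlap was not counted, and 49.8% and 60.6% of all genes were called in these comparisons. The lack of overlap is therefore a description only.

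Both niche ligands fell in tumours. Wnt2 had 0.592 to 2.71 RPKM in the 4-OHT livers (median 0.943), 0.198, 0.524 and 0.0768 in MYC tumours and 0.0520, 0.190 and 0.0612 in MYC+Ex3 tumours. In reads this was 48 to 179 per liver, 10, 43 and 6 in MYC tumours and 4, 12 and 4 in MYC+Ex3 tumours, so the tumour values carry a large counting error. Every tumour was below every liver. Mean RPKM of Wnt2 was 4.25-fold lower in MYC tumours (log2 change -0.71 ± 0.213, limma adjusted p = 0.0130) and 11.2-fold lower in MYC+Ex3 tumours (-0.90 ± 0.213, 0.00219). The log2 changes understate these folds, since a pseudocount of 1 RPKM is near the level of the gene itself, and by voom on the reads they were -2.41 (adjusted p = 0.00512) and -3.65 (0.000603). In the fit of all genes with no filter, which does not depend on how Wnt2 passed, the adjusted p was 0.0209 and 0.00416. Without replicate 3 of the MYC tumours the first call was lost (log2 change -0.60, adjusted p = 0.0660).

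Rspo3 had 1.295 to 2.85 RPKM in the 4-OHT livers (median 1.48), 0.245, 1.09 and 0.136 in MYC tumours and 0.195, 0.182 and 0.284 in MYC+Ex3 tumours, from 12 to 101 reads per tumour. Replicate 2 of the MYC tumours came close to the lowest liver, and the other 5 tumours were far below it. The mean was 3.43-fold lower in MYC tumours (log2 change -0.88 ± 0.189, adjusted p = 0.00172) and 7.62-fold lower in MYC+Ex3 tumours (-1.11 ± 0.189, 0.000174). By voom the changes were -2.38 (0.00128) and -3.05 (0.000256), and with no filter limma gave an adjusted p of 0.00391 and 0.000511.

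**Figure D3:**
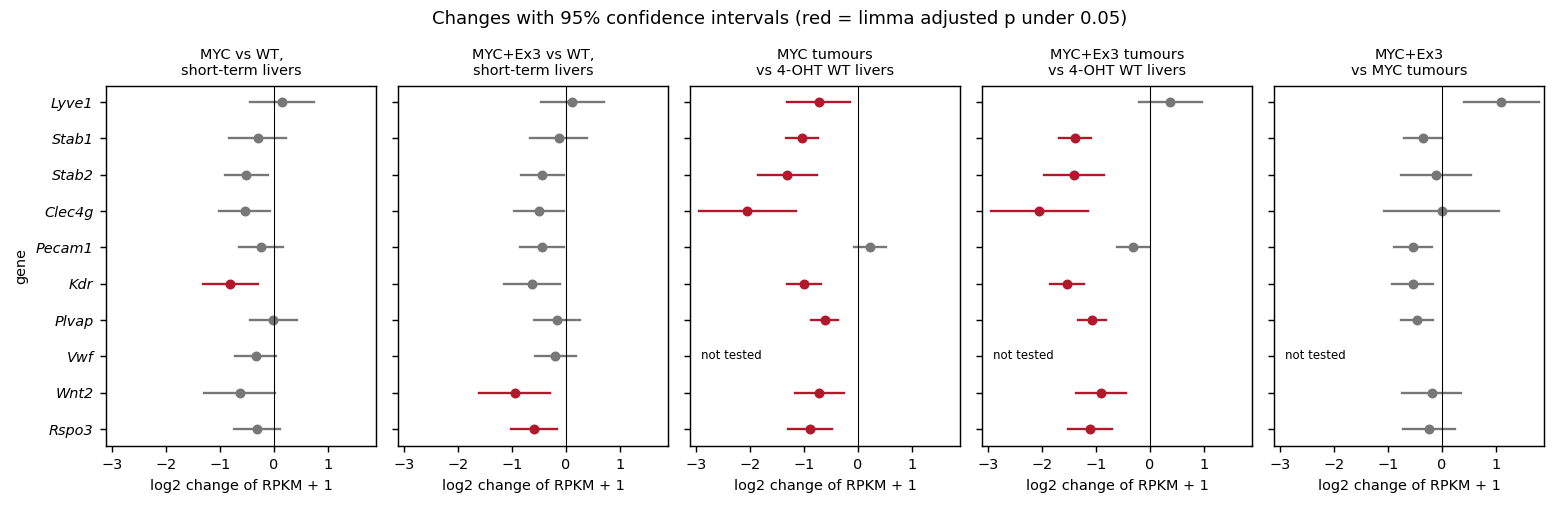
Log2 change of RPKM + 1 for each of the 10 genes in 5 comparisons, as the limma estimate with its 95% confidence interval, in red where the adjusted p was under 0.05. Kdr is red in MYC livers, Wnt2 and Rspo3 in MYC+Ex3 livers, and 8 and 7 genes in the tumours against 4-OHT livers.

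Between the tumours, MYC+Ex3 and MYC differed in no gene of the set by limma at 0.05. Of all genes 4.13% were called (2.02% higher and 2.1% lower), 0 of the 9 genes tested here, with 4 at an unadjusted p under 0.05 and 1 called by voom. Lyve1 was higher in every MYC+Ex3 tumour than in every MYC tumour, 2.24-fold in mean RPKM (log2 change 1.10, adjusted p = 0.0749, 95% interval from 0.41 to 1.80). Pecam1 was lower in all 3 (log2 change -0.54, adjusted p = 0.0892), and this was the call made by voom (-0.67, 0.0362) and, in the authors' deposited table, the 1 gene of the set with an adjusted p-value under 0.05. All genes with such a value came to 4.95% by voom and, in the authors' deposited table, to 4.49% (2.92% as lower). Kdr (-0.54, 0.112), Plvap (-0.46, 0.0870) and Stab1 (-0.35, 0.293) were likewise lower in all 3 MYC+Ex3 tumours. With 3 tumours on each side such separation is easily reached, and the share of all genes that separate was not counted. Clec4g did not separate the tumours (log2 change 0.00, 95% interval from -1.06 to 1.06). For Wnt2 the interval was -0.73 to 0.35 and for Rspo3 -0.71 to 0.25. Single libraries moved these calls, since Stab2 (-0.63) and Kdr (-0.73) were called without replicate 3 of the MYC tumours and Lyve1 (1.41) without replicate 1.

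To ask whether the ligands fell further than the endothelium around them, Wnt2 and Rspo3 were set against the mean log2 level of other pan-endothelial genes in the same library, with 20 such genes in the short-term arm and 18 in the tumour arm. No filter was applied to the ligands in these ratios, and the few reads of Wnt2 in tumours limit their precision. Relative to these, Wnt2 stood at -1.81 ± 0.544 in the 4-OHT livers, -3.23 ± 0.869 in MYC tumours and -3.49 ± 0.558 in MYC+Ex3 tumours (mean log2 ratio ± SD, n = 7, 3 and 3). All tumours were below all livers. The differences were -1.42 and -1.68, each with p = 0.00833 in a two-sided exact permutation test, the smallest p that 120 arrangements can give, and adjusted p = 0.0444 over 16 comparisons. Rspo3 stood at -1.18 ± 0.319, -2.72 ± 1.18 and -2.77 ± 0.271. Its difference was -1.59 in MYC+Ex3 tumours (exact permutation p = 0.00833, adjusted 0.0444) and -1.53 in MYC tumours, where replicate 2 lay inside the liver range (exact p = 0.0250, adjusted 0.1).

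These differences kept their sign but not their call in other settings. With the sinusoidal genes as the reference they were -0.55 and -1.02 for Wnt2 and -0.93 for Rspo3 in MYC+Ex3 tumours (adjusted p = 0.272, 0.0667 and 0.0667, exact permutation), and with a pseudocount of 1 they were -0.43, -0.30 and -0.52. Leaving out any 1 of the libraries compared also took each above 0.05, where fewer arrangements remain. In the short-term livers Wnt2 relative to the pan-endothelial genes was lower in MYC+Ex3 than in WT (log2 difference -0.71, exact permutation p = 0.0397, adjusted p = 0.127), and Rspo3 differed by -0.28 (adjusted p = 0.550).

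**Figure D4:**
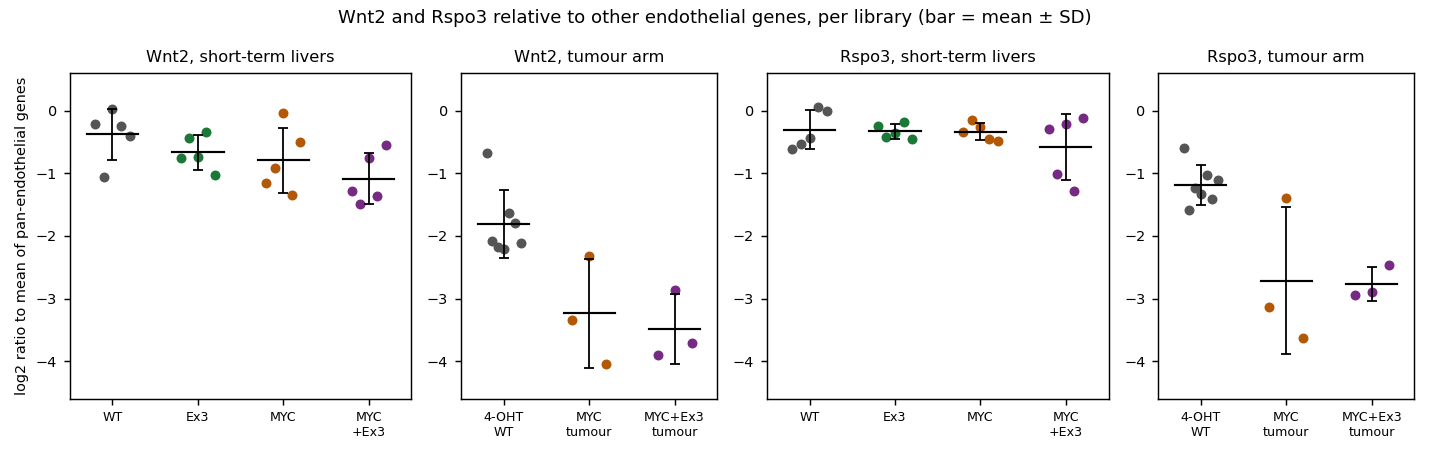
Log2 ratio of Wnt2 and of Rspo3 to the mean of other pan-endothelial genes, 1 point per library, with bars for mean and SD, in the short-term livers and the tumour arm. The Wnt2 ratio of every tumour is below that of every 4-OHT liver, and 1 MYC tumour overlaps the livers for Rspo3.

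Other genes of the endothelium are described by counts over lists drawn up for this comparison. Of 15 further sinusoidal genes tested, 12 fell in MYC tumours (median log2 change -1.002, against 0.19 over all genes) and 13 in MYC+Ex3 tumours (-1.43, against 0.23), with 1 higher there. Of all genes 13.7% and 18.4% fell in these comparisons. Ehd3, which organises vesicles at the membrane, fell from 14.8 to 3.96 and 2.89 RPKM, and Dnase1l3, a secreted nuclease, from 8.22 to 2.06 and 0.998. Bmp6, a signal for iron regulation in hepatocytes, was the exception and rose in MYC+Ex3 tumours from 0.893 to 2.39 RPKM (log2 change 0.85, adjusted p = 0.00445). The liver mean of Bmp6 was under the filter of 1 RPKM, and whether it would pass without the tumours was not tested. Gata4, a transcription factor of the sinusoidal lining, did not pass the test without rescaling, at 3.26 ± 0.539, 3.73 ± 1.42 and 2.51 ± 0.235 RPKM in livers, MYC and MYC+Ex3 tumours. After rescaling, 14 of the 15 sinusoidal genes were called lower in MYC+Ex3 tumours and 1 higher, so Gata4 was called too. Of all genes 27.1% were called lower and 33.9% higher there.

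Of 20 further pan-endothelial genes 19 were tested. In MYC tumours 8 fell and 0 rose (median log2 change -0.28), 12 after rescaling, and in MYC+Ex3 tumours 14 fell and 1 rose (-0.60). Of all genes 13.7% fell in MYC tumours (23.3% after rescaling) and 18.4% in MYC+Ex3 tumours. Eng, an endothelial co-receptor for TGF-β family ligands, fell from 10.3 to 3.99 and 2.86 RPKM, and Ptprb, a phosphatase acting on the angiopoietin receptor, from 8.96 to 3.67 and 2.51. Esam, a junction protein that platelets also carry, rose in MYC+Ex3 tumours from 6.09 to 12.6 RPKM (log2 change 0.94, adjusted p = 7.15e-06), where the platelet markers were higher too, and their part in this was not tested. In the short-term livers 5 of 15 sinusoidal genes were lower in MYC and 3 of 15 in MYC+Ex3 than in WT, and 3 of 20 and 4 of 20 pan-endothelial genes, where 5.36% and 6.18% of all genes were called lower. After rescaling these counts were 9 of 15 in both, and 5 and 6 of 20, with 9.51% of all genes called lower in both comparisons. Ehd3 fell from 70.4 to 38.8 RPKM in MYC livers and Ptprb from 44.0 to 25.6.

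Of 14 genes of capillary and angiogenic endothelium 10 were tested. In MYC tumours 7 rose and 1 fell (6 and 1 after rescaling), where 36.2% of all genes rose and 13.7% fell (27.1% and 23.3% after rescaling). In MYC+Ex3 tumours 5 rose and 3 fell (3 and 3 after rescaling), where 42.3% of all genes rose and 18.4% fell (33.9% and 27.1% after rescaling), so the share that rose is near that of all genes. Apln, a peptide of sprouting tip cells, rose from 0.0769 to 4.96 RPKM in MYC tumours (log2 change 2.09, adjusted p = 0.000858) and to 1.31 in MYC+Ex3 tumours (1.01, 0.0443). At that level in the livers Apln passed the filter only through tumours, where it is high. Its calls, and its part in the counts of 7 and 5, therefore support nothing on their own. Esm1, another tip cell gene, rose from 1.03 to 5.94 and 4.25 RPKM (log2 changes 1.67 and 1.41). Angpt2, the angiopoietin that loosens vessel walls, rose in tumours from 0.814 to 4.58 and 3.35 RPKM and already in short-term livers, from 2.27 in WT to 5.57 in MYC (log2 change 1.00, adjusted p = 0.00337) and 6.26 in MYC+Ex3 (1.08, 0.00163). Selp, an adhesion receptor for leukocytes, fell from 6.98 to 2.44 and 3.34 RPKM in the short-term livers and from 1.14 to 0.355 and 0.452 in the tumours. In the tumour arm the liver mean of Angpt2 and the tumour means of Selp were under the filter of 1 RPKM. Whether Angpt2 would pass without the tumours, or Selp without the livers, was not tested. Their part in the counts of that arm therefore supports nothing on its own.

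The ligand of KDR moved as well. Vegfa fell from 14.6 RPKM in 4-OHT livers to 7.57 in MYC tumours (log2 change -0.87, adjusted p = 0.000126) and 6.86 in MYC+Ex3 tumours (-1.01, 1.73e-05). In the short-term livers Vegfa fell from 44.9 to 28.4 RPKM in MYC and 28.4 in MYC+Ex3 (-0.65 and -0.62, adjusted p = 0.0181 and 0.0227). Vegfb, a related growth factor that binds FLT1, rose in tumours from 1.79 to 5.18 and 4.78 RPKM. Of the 7 ligand genes tested in the tumour arm 2 rose and 2 fell in MYC tumours, and 1 rose and 3 fell in MYC+Ex3 tumours. Of all genes 36.2% rose and 13.7% fell in MYC tumours, and 42.3% rose and 18.4% fell in MYC+Ex3 tumours.

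Few other Wnt or R-spondin genes reached the filter, 7 of 23 in the short-term arm and 4 of 23 in the tumour arm, secretion factors included. In tumours Wnt5b fell from 2.54 to 0.744 and 0.706 RPKM, and Porcn, which acylates Wnt proteins for secretion, from 0.992 to 0.470 and 0.629. The tumour means of both were under the filter of 1 RPKM. Whether they would pass without the livers, where they are high, was not tested, so these falls support nothing on their own. Wnt4 took the opposite course in MYC+Ex3 tumours and rose from 0.491 ± 0.230 to 9.90 ± 3.501 RPKM (log2 change 2.83, adjusted p = 1.71e-07), and stood at 0.336 ± 0.377 in MYC tumours. Of the 4 genes of the list tested, Wnt4 was the 1 called higher in MYC+Ex3 than in MYC tumours (log2 change 3.01, adjusted p = 4.38e-06). Of all genes 2.02% were called higher there. At these levels Wnt4 could not have passed the filter without the MYC+Ex3 tumours, the group where it is high. Its calls therefore describe a gene that passed and support nothing on their own. Wnt9b, a ligand of central vein endothelium, was not tested in this arm and had 0.228 to 0.566 RPKM in the livers, 0.0539 to 0.302 in MYC tumours and 0.0593 to 0.0860 in MYC+Ex3 tumours. The 5 pericentral endothelial genes that include Wnt9b did not fall together. Their summed RPKM was 7.04 to 12.8 in the livers, 12.8 to 23.4 in MYC tumours and 11.4 to 16.6 in MYC+Ex3 tumours. Such a sum is weighted to the genes with the highest levels. The median log2 change of the 3 genes tested was -0.23 in MYC and -0.38 in MYC+Ex3 tumours, against 0.19 and 0.23 over all genes. Of the 3 tested, 1 was called higher and 1 lower in each kind of tumour (1 and 2 in MYC+Ex3 tumours after rescaling). Of all genes 36.2% and 42.3% were called higher, and 13.7% and 18.4% lower.

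Downstream of the ligands, 5 of 12 receptor genes tested fell in MYC tumours and 1 rose, and 5 fell and 4 rose in MYC+Ex3 tumours (7 and 0, and 5 and 3, after rescaling). Of all genes 13.7% fell and 36.2% rose in MYC tumours (23.3% and 27.1% after rescaling). In MYC+Ex3 tumours 18.4% of all genes fell and 42.3% rose (27.1% and 33.9% after rescaling), so the rises did not exceed the background. Fzd4 and Fzd8, receptors of Wnt ligands, fell from 6.40 to 4.09 and 2.12 RPKM and from 1.87 to 0.434 and 0.104. The tumour means of Fzd8 were under the filter of 1 RPKM. Whether Fzd8 would pass without the livers, where it is high, was not tested, so its part in the counts supports nothing on its own. Lgr5, an R-spondin receptor that β-catenin itself induces, fell in MYC tumours from 0.648 to 0.120 RPKM and rose in MYC+Ex3 tumours to 3.32 (log2 changes -0.56 and 1.38, adjusted p = 0.00136 and 4.96e-07). The means of Lgr5 in livers and MYC tumours were under the filter of 1 RPKM. Whether it would pass without the MYC+Ex3 tumours, where it is high, was not tested. Notum, an enzyme that inactivates Wnt proteins and is another β-catenin target, fell from 9.42 to 0.877 RPKM in MYC tumours (log2 change -2.56, adjusted p = 9.45e-07) and rose to 16.97 in MYC+Ex3 tumours (0.79, 0.00450). In the short-term livers Lgr5 rose from 3.35 RPKM in WT to 12.2 in Ex3 and 9.76 in MYC+Ex3, while Lgr4 fell from 56.7 to 39.8 in MYC and 36.7 in MYC+Ex3.

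Markers of the other liver cells moved beside the endothelial genes in tumours. Of all genes 13.7% fell and 36.2% rose in MYC tumours (23.3% and 27.1% after rescaling). In MYC+Ex3 tumours 18.4% of all genes fell and 42.3% rose (27.1% and 33.9% after rescaling). Of 11 macrophage genes 10 fell in MYC tumours and 9 in MYC+Ex3 tumours, with Clec4f, a lectin of Kupffer cells, from 25.7 to 6.11 and 3.94 RPKM. Their summed level was 174 to 241 RPKM in the livers, 67.5 to 182 in MYC tumours and 91.5 to 119 in MYC+Ex3 tumours. Lyve1, Stab1 and Mrc1 are also made by some macrophages, and the part of those cells was not tested. Of 15 stellate cell and fibroblast genes 9 fell and 4 rose in MYC tumours, 11 fell and 2 rose in MYC+Ex3 tumours. These rises did not exceed the share of all genes that rose. Rspo3 and Wnt2 can also come from stromal cells. Ecm1 fell from 16.3 to 4.34 and 3.24 RPKM, while Col1a1 rose from 1.72 to 8.15 and 4.33. Of 9 hepatocyte genes 4 fell in MYC+Ex3 tumours, 7 after rescaling, and in MYC tumours 5 after rescaling and none before. In the short-term arm the macrophage sum was 410 to 798 RPKM in WT, 570 to 853 in MYC and 467 to 871 in MYC+Ex3 livers, and these ranges overlapped.

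**Figure D5:**
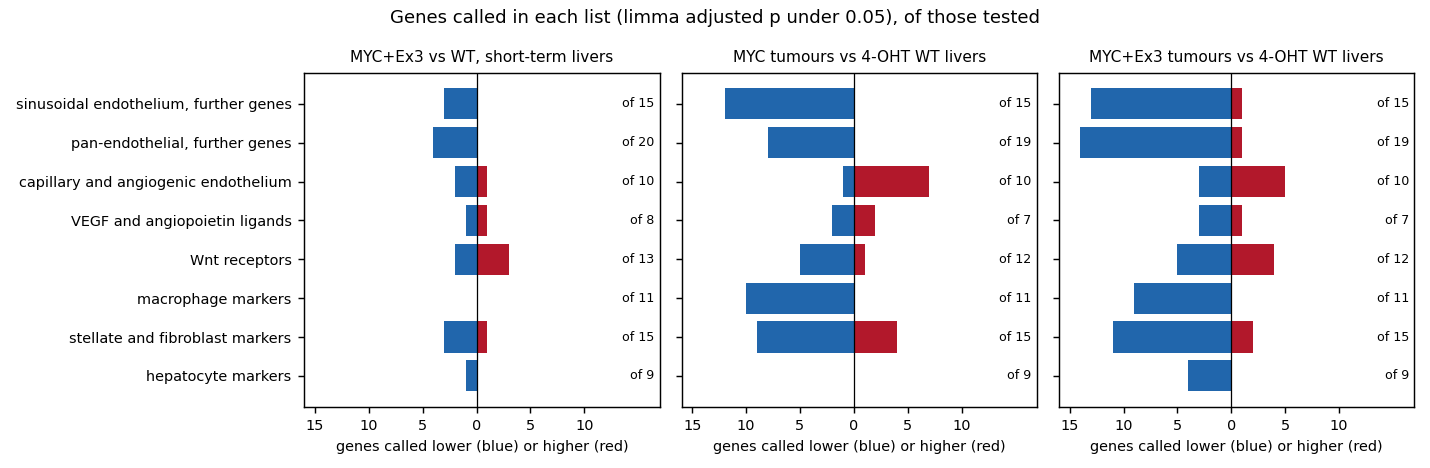
Number of genes called lower (blue, to the left) and higher (red, to the right) by limma in 8 gene lists, with the number tested at the right of each row, in 3 comparisons. The sinusoidal list is called lower in 12 of 15 and 13 of 15 genes in the tumours, where 13.7% and 18.4% of all genes were called lower. The capillary list has 7 and 5 of 10 genes called higher and 1 and 3 called lower. Of all genes 36.2% and 42.3% were called higher, so 5 of 10 in MYC+Ex3 tumours is near the background.

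Finally, the genes whose log2 level ran most like that of each member were listed over the libraries of each arm, as a description. Libraries share depth and group differences, so no test is attached. Over the 20 short-term livers Kdr was nearest to Ptprb (Pearson r = 0.980), Dnase1l3 and Ehd3, Clec4g to Mrc1 (0.958), Stab1 to Flt4 (0.969), and Stab2 to Stard8 (0.963). Wnt2 was nearest to Pde2a (0.953), Grap and Plxnc1, and Rspo3 to Cxcl13 (0.884). Over the 13 libraries of the tumour arm Clec4g and Stab2 ran with Oit3 (0.992 and 0.989) and Gpr182, Kdr with Fcgr2b (0.988), and Wnt2 with Cyyr1 (0.958) and, in the third place, Rspo3 (0.945). Lyve1 had r between -0.25 and 0.34 to the other 9 members in the short-term arm, and Pecam1 had r from -0.44 to 0.35 with the other members in the tumour arm. Stab1, Stab2, Clec4g, Kdr, Plvap, Wnt2 and Rspo3 ran together there, with r of 0.798 or more for every pair.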

How the data were processed

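Reads had been aligned with TopHat2 2.0.8 to mm9 and counted with featureCounts 1.4.5-p1, per the submitters' processing notes. The authors deposited RPKM per library, with a log2 fold change and an adjusted p-value (DESeq2) for each of their comparisons. No deposited column belonged to another series. RPKM values were whole multiples of 1 read, so reads were recovered for 100% of the 20485 genes above 0 (tolerance 0.001), and in simulated data for 97.38% of 20081 genes exactly.

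Libraries were grouped by title and genotype. Each arm was fitted with limma 3.58.1 in R 4.3.3 on log2(RPKM + 1), with a trend, two-sided, over genes with RPKM of at least 1 in at least 3 libraries, and Benjamini-Hochberg adjustment over all genes tested. In simulated data 77% of genes changed 2-fold were recovered for MYC+Ex3 against WT livers (14140 genes) and 86.9% for MYC+Ex3 tumours (12126 genes). The simulation gave every gene the same setting for the spread between libraries and changed a small share of genes. These values are therefore not the power for the 10 genes in the real libraries. Ratios of Wnt2 and Rspo3 to endothelial genes used a pseudocount of 0.1 and exact permutation (Python 3.11.15). The depth is 3.75 to 9.82 M reads in genes per library.

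Alternatives were another pseudocount, no filter, rescaling, voom on reads, sex and keratin terms or subsets, the groups compared alone, sets of 4-OHT livers, and each library left out. The members, lists and tests were chosen with earlier results of these data known. Beyond the members, the text names the genes of a list with the largest called changes and the 3 nearest patterns. Axin2, Myc, Gata4 and Wnt9b, and some genes of a list with smaller changes, were named after their values were seen.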

Additional observations from a re-analysis of the deposited data

Results flagged for a closer look

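In 50 groups of a gene's values, 5 held a library far from the others by Dixon's criterion, where chance gives about 1 in 20. Clec4g was lowest in replicate 2 of the WT short-term livers, 66.7 RPKM against 96.3 to 107 in the other 4. Stab1 was lowest in replicate 4 of the MYC short-term livers, at 8.36 RPKM against 23.7 to 29.9. Replicate 1 of the 4-OHT livers had the highest Wnt2, 2.71 RPKM, and the highest Rspo3, 2.85, where the other 6 livers ran up to 1.10 and 1.73. Stab2 was lowest in replicate 7 of the 4-OHT livers, at 6.63 RPKM against 8.58 to 9.61.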

How the results depend on the processing

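No paired analysis was possible because the labels give no replicate numbers that groups share. The main counts of called members were 1 (MYC livers), 2 (MYC+Ex3 livers), 0 (MYC+Ex3 against Ex3 livers), 8 and 7 (MYC and MYC+Ex3 tumours against 4-OHT livers) and 0 (MYC+Ex3 against MYC tumours), all by limma.

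In MYC livers the count was 3 after rescaling, 0 in a fit of the compared groups alone, 2 with a keratin term and 0 in keratin-free libraries. Without replicates 4 and 5 of MYC it was 0, and leaving out 1 library gave 0 to 3. In MYC+Ex3 livers it was 0 with no filter, 5 after rescaling, 0 with a sex covariate, 7 in keratin-free and 0 in keratin-bearing libraries, 4 without replicates 4 and 5 of MYC, and 0 to 4 without 1 library. Against Ex3 livers it was 1 after rescaling, 1 in the compared groups alone, 2 in keratin-free libraries, 2 without replicates 4 and 5 of MYC, and 0 to 2 without 1 library. Between the tumours it was 1 after rescaling, 1 by voom, 1 without replicate 2 of the MYC tumours and replicate 1 of the 4-OHT livers, and 0 to 2 without 1 library. Both settings that leave out a pair of libraries were chosen after the data were seen. The share of all genes called moved with the setting too. In MYC+Ex3 livers 6.18% were called lower in the main fit and 9.51% after rescaling. In keratin-free and keratin-bearing libraries 8.44% and 3.59% were called lower. Such a share is not given for every setting, so these counts alone are no result about the members. In the tumours against 4-OHT livers the count stayed between 6 and 8 without 1 library. Wnt2 gave no value where a setting took it under the filter, as in 3 of the 13 fits that leave out 1 library of the tumour arm.

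For the log2 ratio to pan-endothelial genes, a pseudocount of 1 gave -0.4252 for Wnt2 in MYC tumours, -0.3044 for Wnt2 and -0.5168 for Rspo3 in MYC+Ex3 tumours. Between the tumours it turned the sign, to 0.1208 for Wnt2 and 0.0755 for Rspo3. With sinusoidal genes as the reference the values were -0.5512, -1.0244 and -0.9345, and Rspo3 turned to 0.1069 in Ex3 and 0.1465 in MYC livers, where neither setting gave a call. Leaving out 1 library gave -1.8789 to -1.015 for Wnt2 in MYC tumours, -1.9955 to -1.4702 for Wnt2 and -1.7443 to -1.4919 for Rspo3 in MYC+Ex3 tumours, none called because fewer arrangements remain. Between the tumours it gave -0.6635 to 0.2004 for Wnt2 and -0.5097 to 0.6105 for Rspo3. In Ex3 and MYC livers it gave -0.1051 to 0.0655 and -0.1125 to 0.0582 for Rspo3. Apart from that last reason, the cause of these changes was not tested. Depth limits Wnt2 and Rspo3 most, at 4 to 43 and 12 to 101 reads per tumour.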
